A study of Danio rerio with 4 samples.

Results

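Long stretches without a 5hmC peak, called deserts here, were described in zebrafish embryos at 48 hours after fertilisation. A desert was a gap of at least 50 kb between the end of a peak and the start of the next in the control morpholino peak list. Chromosomes 1 to 25 were used, without chromosome 4 from 30 Mb onwards. By this rule 1461 of 225235 intervals between adjacent control peaks were deserts (0.649%). The deserts were chosen by the positions of the control peaks, so their number, length and position are a description with no test. Whether a desert also held peaks of the tet2/3 double morpholino list did not enter the rule.

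5-Hydroxymethylcytosine (5hmC) is made by TET enzymes, which oxidise 5-methylcytosine, and tet2 and tet3 supply most of it in the zebrafish embryo. In vertebrates the base is found mainly over the bodies of transcribed genes and at enhancers, and it is scarce in repeat-rich heterochromatin. A long gap between peaks can therefore be a stretch of low 5hmC. A run of unknown bases in the assembly, or repeats to which reads cannot be placed, gives a gap as well. No genome sequence of the files' build was used here, so these cases cannot be told apart. A gap shows that no enrichment was called there, not that 5hmC was absent.

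Fragments that carry 5hmC were enriched with an antibody and sequenced (hMeDIP). The tet2/3 group had received morpholinos against tet2 and tet3, and the control group a control morpholino. Morpholinos are antisense oligonucleotides that act for a limited time after injection, and the peak lists do not show how far they lowered the enzymes. The tissue label of both groups is embryo, while the extraction protocol names the head. Each group has 1 pull-down and 1 input library, so no test between groups was possible and no difference has a replicate check. The 95% intervals below hold counting error alone and treat peaks as independent, which neighbours are not.

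After the exclusions the tet2/3 morpholino list held 79973 peaks, or 61.7 per Mb, and the control list 225260, or 173.7 per Mb. The background behind the peaks, worked out from their fold and p-value, was most often 2.81 fragments in the tet2/3 morpholino list and was at least 7.53 in the control list. A scaling of the tet2/3 morpholino pull-down by a factor of 0.474 in peak calling was estimated from the same values. By these estimates peaks were called at a lower depth in the tet2/3 morpholino list. The lower peak number there is not a measure of the amount of 5hmC.

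The deserts covered 111.3 Mb, which was 8.58% of the 1296.7 Mb between the first and the last control peak of the chromosomes. Their median length was 65.9 kb, with quartiles of 56.0 and 82.8 kb, against a median of 2.60 kb over all intervals between adjacent control peaks. In all, 203 deserts reached 100 kb and 21 reached 200 kb. At the threshold, the shortest deserts were chr17:48636586-48686588 with 50003 bp, chr3:29559296-29609302 with 50007 bp and chr7:58749855-58799875 with 50021 bp. The longest intervals that missed it were chr5:29208578-29258566 with 49989 bp, chr10:32629042-32678995 with 49954 bp and chr7:29073997-29123948 with 49952 bp. Lengths ran through the threshold without a break, so the limit of 50 kb is a convention. Positions are 1-based in the build of the files, GRCz11.

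**Figure D1:**
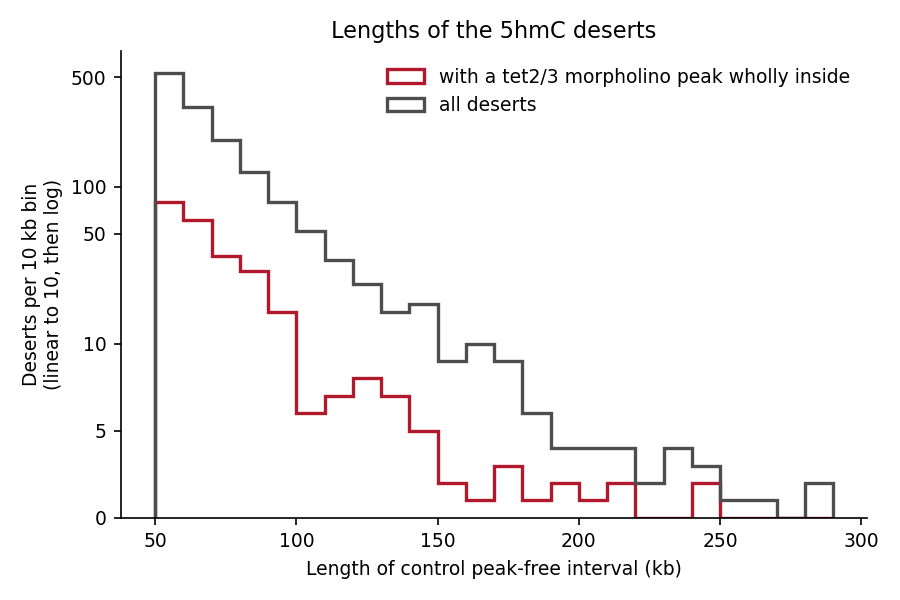
Lengths of the 1461 deserts in bins of 10 kb (x axis, kb) and their number (y axis, linear to 10 and logarithmic above), for the 269 with a tet2/3 morpholino peak wholly inside (red) and for all deserts (grey). Most deserts lie near the limit of 50 kb, and the longest spans 284.8 kb.

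The 10 longest deserts spanned 235.9 to 284.8 kb, and 3 of them were met by a tet2/3 morpholino peak. Of all deserts of 150 kb or more, 32.2% (21.7 to 44.9) were met by 1 or more, and of all deserts 23.6%. The longest, chr3:1506078-1790857, held none over 284.8 kb. The second, chr1:58270385-58552817, held none over 282.4 kb, and the third, chr7:2446297-2710839, none over 264.5 kb. These 3 lay 1.03 to 2.45 Mb from a chromosome end.

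The fourth, chr5:53268216-53528043, was met by 1 tet2/3 morpholino peak, which reached across its border and was not wholly inside. The fifth, chr24:12349405-12596703, and the seventh, chr22:8095358-8336515, held 1 each. The remaining 4, chr3:1873788-2118071, chr25:10783191-11022642, chr5:47316668-47555449 and chr22:8336846-8572731, held none. The deserts of chromosome 22 in this group adjoined each other, with a single control peak between them that had a fold of 5.01 and no overlapping tet2/3 morpholino peak. The desert on chromosome 25 was bordered by control peaks with folds of 7.18 and 7.30, and both were overlapped by a tet2/3 morpholino peak. A desert without peaks in either list can thus lie between borders that were called in both.

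Deserts occurred on all 25 chromosomes in unequal shares. They covered 8.54 ± 3.06% of a chromosome (mean and SD, 25 chromosomes). Chromosome 22 had the highest share, with 84 deserts over 18.7% of its span, and chromosome 3 the next, with 104 deserts over 14.1%. The lowest were chromosome 13, with 31 deserts over 4.26%, and chromosome 11, with 27 over 4.55%. Chromosomes with more control peaks per Mb had a smaller desert share (Spearman's rho = -0.65 over 25 chromosomes). This is a description, since both measures come from the same list. The first 30 Mb of chromosome 4 stood outside this order. They had the highest control density of all, at 222.8 peaks per Mb, and still 9.37% in deserts. Of the 37 deserts there, 22 lay from 25 Mb onwards, next to the part of the chromosome that was left out.

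Deserts were scarce at the chromosome ends. The outermost 1 Mb held 0.451 deserts per Mb (0.282 to 0.682) and the next 1 Mb held 0.755 (0.532 to 1.04). Density was 1.07 at 2 to 5 Mb and highest at 10 to 20 Mb from an end, with 1.32 per Mb (1.22 to 1.42), where deserts covered 9.95% of the sequence. Farther in, at 20 to 45 Mb, density was 0.936 per Mb (0.838 to 1.04) and deserts covered 6.88%. Control peaks were densest in the outermost 1 Mb, with 263.7 per Mb, against 164.5 at 10 to 20 Mb and 157.8 at 20 to 45 Mb. Desert density thus did not follow control peak density in the chromosome interiors.

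Most deserts stood alone, and some lay next to each other. In 137 cases a single control peak had a desert on both sides. When deserts at most 10 kb apart were joined, 329 of the 1461 fell into 142 runs of at least 2, and the other 1132 stood alone. The longest runs held 5 deserts each. The run at chr22:7895122-8642046 spanned 0.747 Mb with 4 control peaks between its deserts and 2 tet2/3 morpholino peaks inside them, and none of the 4 control peaks was overlapped. The run at chr17:46598233-46997455 spanned 0.399 Mb with 5 control peaks between its deserts, of which 2 were overlapped. Another run, chr7:2385626-3067006, had 4 deserts over 0.681 Mb, no tet2/3 morpholino peak inside them and 3 control peaks between them, none overlapped. The run at chr22:27527283-27901570 also had 4 deserts, with 2 tet2/3 morpholino peaks inside them, and 4 of its 5 control peaks were overlapped. In the runs of 4 deserts on chromosomes 2, 3 and 4, none was overlapped. The overlapped share was 19.8% over all control peaks that border a desert and 30.7% over all control peaks.

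Most deserts were also empty in the tet2/3 morpholino list. Of the 1461 deserts, 1116 (76.4%, 95% CI 74.1 to 78.5, Wilson) shared no base with a tet2/3 morpholino peak, and 345 (23.6%, 21.5 to 25.9) shared at least 1 bp. Over all intervals between adjacent control peaks that share was 10.2%, and most of those intervals are far shorter. The 345 deserts were met by 401 peaks, or 3.60 per Mb of desert (exact Poisson interval 3.26 to 3.97), of which 88 reached across a border into a control peak and 313 lay wholly inside. Of the deserts, 269 (18.4%, 16.5 to 20.5) held a peak wholly inside, against 2.99% of all intervals. There were 232 deserts with 1 such peak, 32 with 2, 3 with 3 and 2 with 4.

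Per length of sequence, tet2/3 morpholino peaks were rarer in deserts than in any shorter control peak-free interval. Peaks wholly inside occurred at 2.81 per Mb of desert (exact Poisson interval 2.51 to 3.14) and at 6.60 per Mb (6.45 to 6.76) in all shorter intervals together. By length of interval, density was 11.9 per Mb under 1 kb, 8.43 at 1 to 5 kb, 7.20 at 5 to 10 kb, 5.79 at 10 to 20 kb and 4.30 (4.05 to 4.56) at 20 to 50 kb. The intervals of neighbouring classes did not overlap in any of these steps. A short interval has less room for a whole peak, and all of it lies close to a control peak. The part of either in this order was not tested. The ratio of deserts to intervals of 20 to 50 kb was 0.654 (0.577 to 0.742).

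Single chromosomes varied around this value. Density in deserts was 2.89 ± 0.763 per Mb (mean and SD, 25 chromosomes), and in intervals of 20 to 50 kb it was 4.19 ± 0.921. It was lower in deserts on 20 of 25 chromosomes. The exceptions were chromosomes 4, 8, 16, 22 and 24. On chromosome 24 the deserts held 10 peaks, or 4.54 per Mb, the highest density of any chromosome, against 3.01 per Mb in intervals of 20 to 50 kb. Chromosome 15 had the lowest, with 4 peaks in its deserts, or 1.14 per Mb, against 4.15 per Mb.

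Among the deserts, too, the longest were the emptiest per length. Density was 3.11 per Mb at 50 to 60 kb, 3.18 at 60 to 75 kb and 3.12 at 75 to 100 kb, which did not differ beyond counting error. It was 2.17 (1.53 to 2.99) at 100 to 150 kb and 1.40 (0.801 to 2.27) from 150 kb upwards. Deserts of 100 kb or more together held 53 peaks, or 1.86 per Mb (1.39 to 2.44). The share of deserts with a peak wholly inside still went up with length, being 15.1% at 50 to 60 kb and 23.7% (14.7 to 36.0) from 150 kb, as longer deserts hold more sequence. Whether assembly gaps are more frequent in the longest deserts was not tested.

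Tet2/3 morpholino peaks without a control peak made up 9.3% of their list, and they were far more frequent near chromosome ends in every class of shorter interval. In deserts this excess was smaller over the 2 Mb as a whole. Position within the 2 Mb was not matched between the classes. Within 2 Mb of an end, intervals of 1 to 5 kb held 34.2 peaks per Mb against 5.59 elsewhere, a ratio of 6.11 (5.64 to 6.63). The ratio was 4.61 (4.16 to 5.11) at 5 to 10 kb, 4.26 (3.78 to 4.80) at 10 to 20 kb and 3.01 (2.53 to 3.59) at 20 to 50 kb. For deserts it was 1.25 (0.787 to 1.99), from 3.48 per Mb near the ends and 2.78 elsewhere. The counting interval of the deserts lies below that of every shorter class. It rests on 19 peaks in 60 deserts, and 10 of these peaks lay in deserts centred in the outermost 1 Mb, at 5.33 per Mb (2.55 to 9.79). Of the 22 deserts centred there, 45.5% were met by a tet2/3 morpholino peak, against 21.6% of the 37 at 1 to 2 Mb. Whether place within the 2 Mb sets the lower ratio of deserts was not tested. Away from the ends, density was 5.59 per Mb at 1 to 5 kb, 5.64 at 5 to 10 kb, 3.93 at 20 to 50 kb and 2.78 in deserts, so the lower density of deserts was found there as well.

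**Figure D2:**
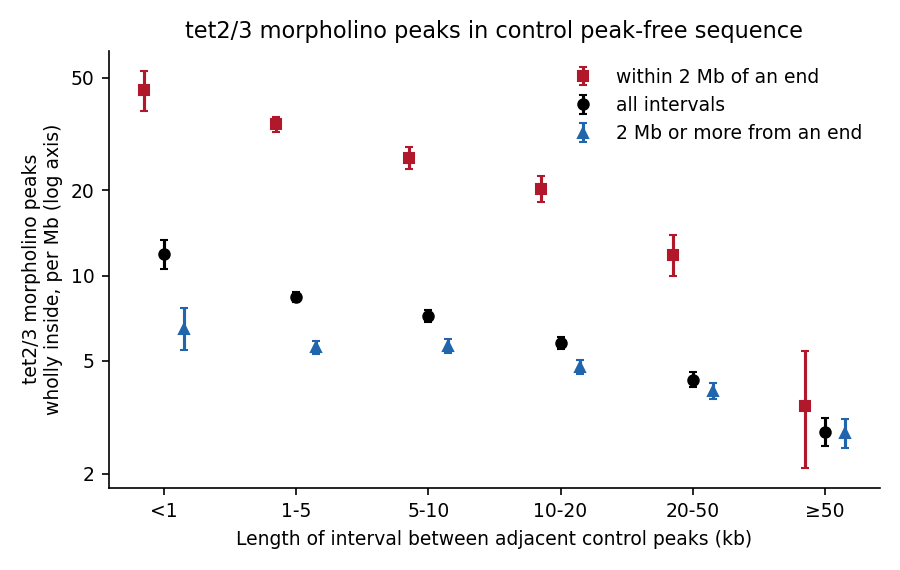
Tet2/3 morpholino peaks wholly inside the intervals between adjacent control peaks, per Mb of interval (y axis, logarithmic), by interval length (x axis, kb), within 2 Mb of a chromosome end (red), over all intervals (black) and elsewhere (blue), with exact Poisson 95% intervals. The red and blue points lie far apart for intervals of 1 to 5 kb (34.2 and 5.59 per Mb) and close together for deserts (3.48 and 2.78 per Mb).

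The tet2/3 morpholino peaks inside deserts were weak and narrow, like other peaks of that list without a control peak. Their median fold, as given by the authors' peak caller, was 3.75 (quartiles 3.35 and 4.24) for the 313 peaks inside deserts. It was 3.74 (3.33 and 4.24) for the 7127 other peaks without control overlap and 4.16 for the 72533 peaks with it. Median width was 167 bp in deserts, 179 bp in the other peaks without overlap and 301 bp in those with it. The share with a −log10 q of at least 5 was 25.2%, 24.0% and 50.6% in the same order. The solved background at the summit had a median of 3.00 fragments in deserts and 3.00 in the other peaks without overlap. The pull-down had a median of 31 fragments at the summit in both sets. Any called peak has such fragments, and whether reads have a unique place at the 313 sites was not tested. The lists hold no fragment counts for the 1192 deserts without such a peak.

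The 5 strongest of these peaks lay on chromosomes 1, 8, 10 and 18. The peak at chr1:8570167-8570576 had a fold of 7.71 and a −log10 q of 15.6 from 60 fragments at its summit, and it lay 34.6 kb from the nearest border of a desert of 70.9 kb. The desert chr8:3582468-3635594 held a pair of them, at 3616434-3616878 with a fold of 7.12 and at 3620162-3620583 with a fold of 6.44. The peak at chr18:7049047-7049272 had a fold of 6.76, at 39.2 kb from the nearest border. The peak at chr10:11971639-11972073 had a fold of 6.67 and lay in a desert of 205.7 kb. The nearest control peak was at least 13.4 kb away from each of the 5.

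The desert met by most tet2/3 morpholino peaks was chr7:61679241-61755461, with 5, of which 4 lay wholly inside. Between 61724716 and 61731471 it held 3 of them, with folds of 4.09, 4.88 and 2.16. The solved background there was 7.00, 6.00 and 10.00 fragments, above the 2.81 most frequent in the list. The desert chr1:20975474-21123370, with 147.9 kb, held 4 peaks wholly inside, at 20984994-20985294, 20994890-20995214, 21004824-21004963 and 21014612-21014986, with folds of 3.62 to 5.85. Their starts were almost evenly spaced, and whether they lie in repeated sequence was not tested. The desert chr3:5241303-5293062 was met by 4 peaks, of which 2 were wholly inside. The desert chr13:154882-217277, near a chromosome end, held 3 between 210515 and 212350, and chr5:20099458-20170792 was met by 3, of which 2 were wholly inside.

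Within deserts the peaks occurred at all distances from the borders, but were sparser at 50 kb or more than in the first 5 kb. The central 50% of the desert held the summits of 147 of the 313 peaks (47.0%, 41.5 to 52.5), and the nearest border was 16.4 kb away at the median. Density was 3.83 per Mb (2.90 to 4.98) in the first 5 kb from a border, 2.81 (2.01 to 3.81) at 5 to 10 kb, 3.15 (2.54 to 3.86) at 15 to 25 kb and 2.43 (1.90 to 3.05) at 25 to 50 kb. These intervals overlap. At 50 kb or more from both borders, which only the longest deserts reach, density was 1.47 (0.760 to 2.57). This interval lies below that of the first 5 kb. The 88 peaks that reached across a border are not counted in these densities.

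Both lists were sparse for a long way outside the deserts. At 5 to 10 kb from a border there were 26.2 tet2/3 morpholino and 87.6 control peaks per Mb. At 50 to 100 kb there were 45.8 and 143.5, at 250 to 500 kb 66.0 and 192.0, and beyond 1 Mb 85.5 and 220.7. Control peaks per tet2/3 morpholino peak were 3.34 (2.95 to 3.78) at 5 to 10 kb, 2.91 at 250 to 500 kb and 2.58 beyond 1 Mb, a class that holds sequence near chromosome ends. Without the terminal 2 Mb there were 68.2 tet2/3 morpholino and 205 control peaks per Mb at 500 to 1000 kb. Beyond 1 Mb there were then 68.5 and 211. The ratio without these ends was 3.62 (3.18 to 4.13) at 5 to 10 kb and 3.57 (3.38 to 3.77) at 25 to 50 kb. It was 3.06 (3.00 to 3.12) at 250 to 500 kb and 3.08 beyond 1 Mb. Tet2/3 morpholino peaks were thus fewer relative to control peaks within 50 kb of a desert than farther away. The ratio takes no account of control fold, which had a median of 3.39 in border peaks and 3.82 in other control peaks. The part of control fold in the ratio was not tested. The first 5 kb hold the control peak that defines the border, and the ratio of 4.53 there is set in part by the rule.

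**Figure D3:**
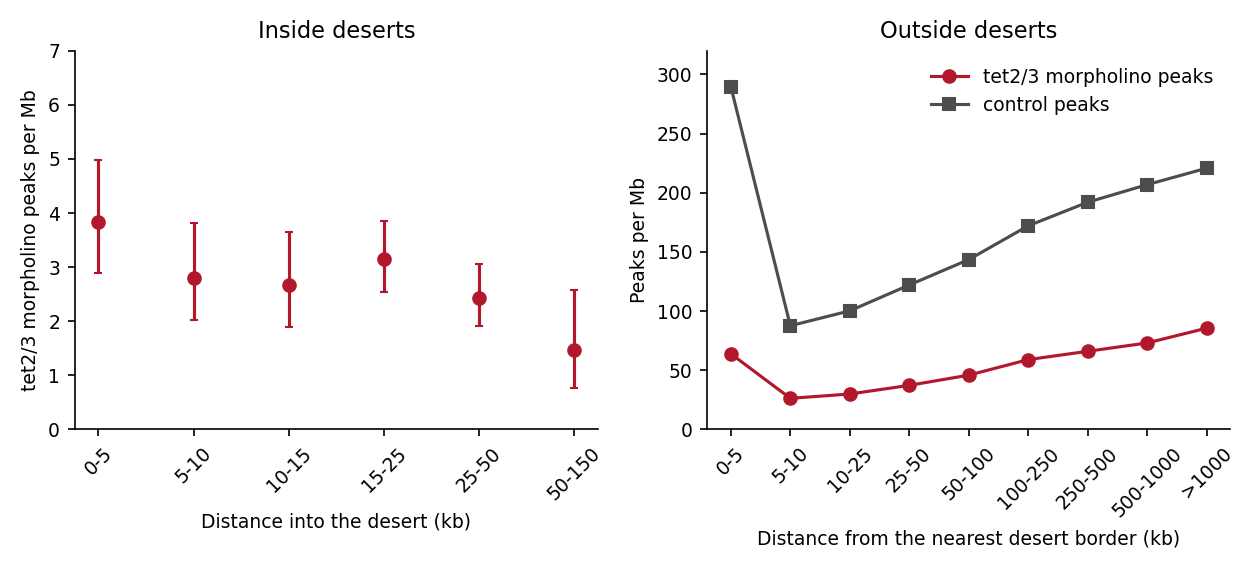
Left: tet2/3 morpholino peaks per Mb inside deserts by distance of the summit from the nearest border (kb), with exact Poisson 95% intervals. Right: tet2/3 morpholino (red) and control (grey) peaks per Mb outside deserts by distance from the nearest border (kb, unequal bins). From 5 to 10 kb outwards both lists become denser with distance, to 85.5 and 220.7 peaks per Mb beyond 1 Mb. Chromosome ends are included. Without the terminal 2 Mb, tet2/3 morpholino peaks stood at 68.2 per Mb at 500 to 1000 kb and 68.5 beyond 1 Mb.

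Gaps of this length were far more frequent in the tet2/3 morpholino list. It had 6155 intervals of 50 kb or more, over 603.9 Mb, beside a control peak span of 1296.7 Mb. They took up 96.1% of the length of the control deserts, and control deserts took up 17.7% of theirs. The 1116 deserts that met no tet2/3 morpholino peak lie in such intervals by construction, so the share of 96.1% is largely set by the rule. Of these tet2/3 morpholino intervals, 6 shared no base with a control peak, and at the median they met 9 control peaks. The density of control peaks wholly inside them was 86.3 per Mb. The 1116 deserts without any tet2/3 morpholino peak lay in tet2/3 morpholino intervals with a median length of 158.8 kb, up to 1147 kb, which were 2.26 times as long as the desert at the median. A sparser list has longer gaps by construction, so these lengths are a description.

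Control peaks that border a desert were retained less often than other control peaks. The deserts had 2785 border peaks, of which 552 (19.8%, 18.4 to 21.3) shared at least 1 bp with a tet2/3 morpholino peak. Of the 222475 other control peaks, 68500 (30.8%, 30.6 to 31.0) did, and of all control peaks 30.7%. The difference was -10.97 points (-12.5 to -9.48). It was negative on 25 of 25 chromosomes, with a mean of -10.95 ± 4.31 points (SD). The smallest was on chromosome 2, where 26.4% of border and 29.1% of other peaks were overlapped, and the largest on chromosome 23, with 10.1% and 33.4%. Both borders were overlapped at 62 deserts (4.24%), 1 border at 453 (31.0%) and none at 946 (64.8%). The like split over all intervals between adjacent control peaks is not given here, so this split only describes the deserts. Borders at the start (20.5%) and at the end (19.0%) of a desert were alike within counting error.

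**Figure D4:**
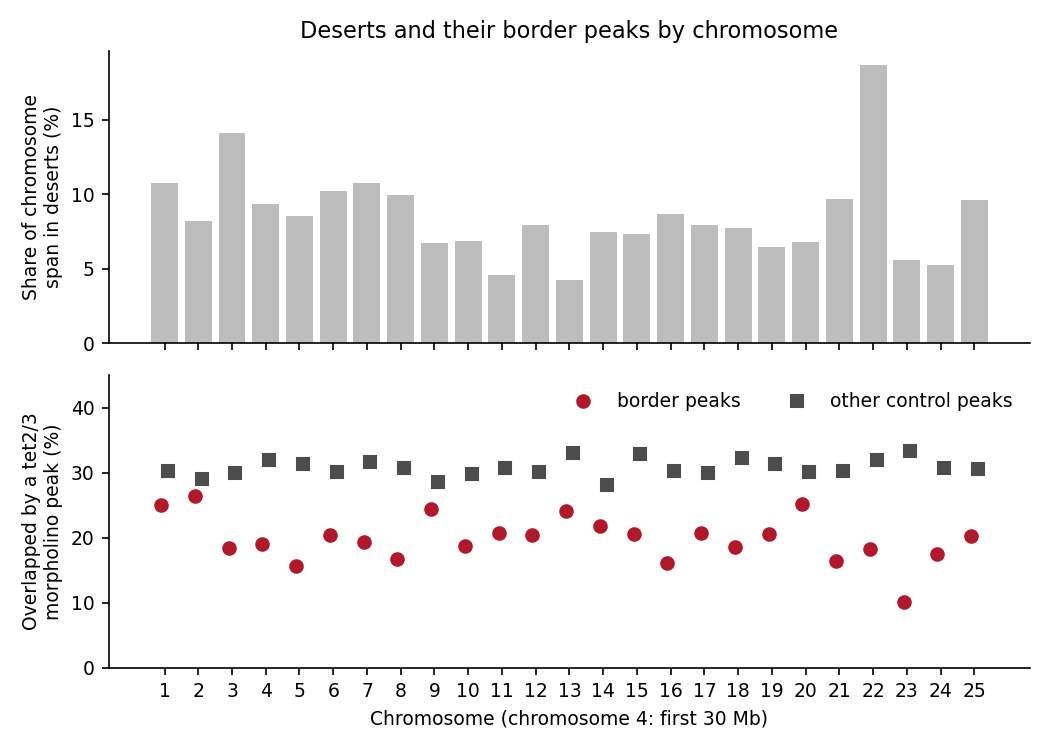
Top: share of each chromosome's span in deserts (%). Bottom: share of border peaks (red) and of other control peaks (grey) overlapped by a tet2/3 morpholino peak (%). Chromosome 22 has the highest desert share at 18.7%, and the border peaks lie below the other control peaks on all 25 chromosomes.

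Border peaks had a lower enrichment in control embryos, and at equal control fold the difference to other control peaks was smaller. Their median fold was 3.39 and their median width 315 bp, against 3.82 and 396 bp in the other control peaks. These values come from the list that chose the deserts and are given as a description. Other control peaks with the same distribution over 7 classes of fold were overlapped in 22.8%, which left a difference of -2.96 points. By chromosome this remainder was -2.79 ± 3.78 points (SD, 25 chromosomes), negative on 19 of them. At 2 Mb or more from an end it was -1.38 points, with 19.4% (17.9 to 20.9) of border peaks overlapped and 20.8% of other peaks of the same fold, which is within counting error.

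By class of fold, border peaks were lower in some classes and level in others. Away from chromosome ends, border peaks with a fold of 2 to 3 were overlapped in 8.26% (6.61 to 10.3) and other peaks in 8.16%. At 3 to 4 the shares were 15.5% (13.4 to 17.9) and 15.02%. At a fold of 5 to 6, 37.0% (30.5 to 44.0) of border peaks were overlapped against 45.5% (44.9 to 46.2) of other peaks. At 6 to 8 it was 56.7% (48.9 to 64.2) against 65.7% (65.1 to 66.4). The intervals of both groups were apart in these last classes and overlapped in the others. Border peaks were also narrower at the same fold, with a median of 462 bp against 621 bp at a fold of 6 to 8. In a second measure, a control peak was counted only if its summit lay inside a tet2/3 morpholino peak. This does not depend on the width of the control peak, but it does on that of the tet2/3 morpholino peak. By this rule the classes went both ways. Border peaks then had 50.3% against 58.2% at a fold of 6 to 8 and 32.8% against 38.2% at 5 to 6, but 13.8% against 11.8% at 3 to 4 and 6.77% against 6.11% at 2 to 3. Over all classes away from the ends, 17.0% (15.6 to 18.5) of border peaks were counted, against 17.1% of other peaks of the same fold, a difference of -0.073 points. By this measure no difference at equal fold was detectable there. The part of width and of chance overlap with the denser tet2/3 morpholino peaks around other control peaks was not tested.

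**Figure D5:**
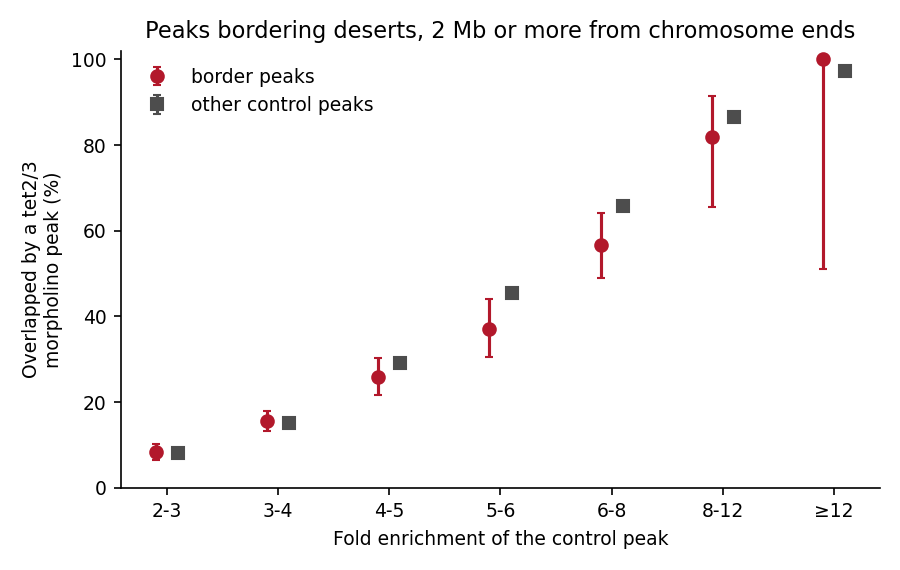
Share of control peaks overlapped by a tet2/3 morpholino peak (y axis, %) by fold of the control peak (x axis), for border peaks (red) and other control peaks (grey) at 2 Mb or more from a chromosome end, with Wilson 95% intervals. Both groups coincide at a fold of 2 to 4, and border peaks lie lower at 5 to 8.

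Near chromosome ends the difference was wider. Within 2 Mb of an end, 33 of 108 border peaks (30.6%, 22.7 to 39.8) were overlapped, against 49.7% of other control peaks there and 42.3% of those at the same fold. Position within the 2 Mb was not matched. Deserts were sparser in the outermost 1 Mb than in the next (0.451 and 0.755 per Mb), and control peaks were denser there (263.7 and 212.9 per Mb). Border peaks of short and long deserts did not differ beyond counting error, with 20.6% (18.3 to 23.2) overlapped at deserts of 50 to 60 kb and 21.2% (14.8 to 29.4) at those of 150 kb or more. The 137 peaks with a desert on both sides had a median fold of 3.16, and 25 of them (18.2%, 12.7 to 25.6) were overlapped. The solved background was alike in border peaks and other control peaks, with a median of 8.43 fragments in both and 22.5% against 21.3% at the lowest level.

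The share rose slowly over the control peaks next in line, and the counting intervals of the first (18.4 to 21.3) and the tenth did not overlap. Counted outwards from a desert, the first control peak was overlapped in 19.8%, the second in 20.4%, the fifth in 22.6% and the tenth in 24.0% (22.4 to 25.7). Their median fold was 3.39, 3.40, 3.44 and 3.52 in the same order. Against control peaks of the same fold that border no desert, the difference was -2.96 points for the first peak and -3.29 for the second. It was -1.63 points for the fifth and -1.84 for the tenth. At equal fold the border peak thus did not stand apart from the second peak in line. Without the terminal 2 Mb the differences were -1.38, -1.65, -0.213 and -0.414 points in the same order. For the tenth peak this was 23.4% (21.8 to 25.1) against 23.8%, which is within counting error.

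The strongest border peaks were retained. The highest fold, 14.1, belonged to the peak at chr18:280061-280672, with 150 fragments at its summit, which bordered a desert of 61.3 kb and met a tet2/3 morpholino peak with a fold of 8.16. The peak at chr1:28226477-28227134, with a fold of 13.4, stood alone between deserts of 63.1 and 75.1 kb and met a tet2/3 morpholino peak with a fold of 6.27. The third, chr9:32691685-32692299, had a fold of 13.2, the fourth, chr13:47737825-47738769, of 12.5 and the fifth, chr7:5882152-5882622, of 12.3. Each of the 5 was overlapped by 1 tet2/3 morpholino peak. Folds were not compared between the lists, whose depths differ. Of the other control peaks at a fold of at least 12, 97.1% were overlapped.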

How the data were processed

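5hmC pull-downs (hMeDIP) of 1 tet2/3 double morpholino and 1 control morpholino sample were used through 1 peak list each. Bowtie2 2.2.6, MACS2 2.2.7.1, deepTools and the builds GRCz11 and danRer11 are named in the submitters' processing notes. Their settings, and whether reads were pooled, were not given in the sources used here, and inputs entered only through peak calling. The deposited fold is a ratio of summit pileup to local background by the authors' peak caller. The −log10 p and −log10 q values are deposited too, and the deposited score is −log10 q times 10, cut to a whole number.

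Intervals, overlaps of at least 1 bp and distances were computed with Python 3.11.15, numpy 2.4.6, pandas 2.3.3 and scipy 1.17.1, and checked on simulated data. Chromosome length was taken as the last peak end. Fragments and background at each summit were solved from fold and p-value under a Poisson model, with 1 added to pileup and background. All peaks were solved within a relative misfit of 0.0001. The scaling factor of the tet2/3 morpholino list was not reported, and was taken as the value with the smallest median misfit over a part of its peaks. Fragments are before scaling, and the tet2/3 morpholino background is after it.

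The deserts, their measures and the classes were chosen with earlier results of these data known. Regions named by rule were the 10 longest deserts, the 5 met by most tet2/3 morpholino peaks, the 5 strongest such peaks inside, the 5 strongest border peaks and 3 intervals on each side of the 50 kb limit. Runs were joined after seeing the data. Genes, base composition and sequences were not used here, since the only gene table given is built on a different assembly (GRCz12tu).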

Additional observations from a re-analysis of the deposited data

Results flagged for a closer look

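Part of the data left out of the comparisons also held tet2/3 morpholino peaks in control peak-free intervals. In chromosome 4 from 30 Mb onwards, 59 tet2/3 morpholino peaks lay wholly inside control peak-free intervals of 50 kb or more. There were 296 such intervals over 32.8 Mb, or 68.3% of that part, the longest of 1.06 Mb. The density of 1.80 peaks per Mb (exact Poisson interval 1.37 to 2.32) is set beside 2.81 per Mb (2.51 to 3.14) in the deserts described above. The intervals on chromosome 4 were longer, with a mean of 110.8 kb against 76.2 kb. The deserts of 100 kb or more described above held 1.86 per Mb (1.39 to 2.44), a value within counting error of that on chromosome 4. The 2 sets are not matched in length, as the chromosome 4 value counts all intervals from 50 kb. Of the 296 on chromosome 4, 69 were met by a tet2/3 morpholino peak (23.3%, 18.9 to 28.5). This share was within counting error of the 23.6% in all deserts described above, and it was 29.1% in those of 100 kb or more. On unplaced scaffolds, 15 such intervals over 1.28 Mb held 0 tet2/3 morpholino peaks wholly inside.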

How the results depend on the processing

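Shares and densities here count every tet2/3 morpholino peak that shares at least 1 bp with a desert (23.6% of deserts, 3.60 per Mb), unless stated. At a limit of 100 kb there were 203 deserts, with 29.1% met and 2.32 peaks per Mb. The ratio to intervals of 20 to 50 kb, which counts peaks wholly inside, was 0.433. At 30 kb there were 4770, with 19.0% and 4.54 per Mb. Control peaks at a −log10 q of 5 or more alone gave 29.5% and 5.02 per Mb. Peaks wholly between the borders gave 18.4% and 2.81 per Mb, and peaks at least 1 kb from them 17.7% and 2.70 per Mb. Tet2/3 morpholino peaks at a −log10 q of 5 or more gave 8.08% and 1.11 per Mb, with 9.59% of border peaks overlapped and a difference to other control peaks of -6.54 points. Those with a fold of at least 4 gave 10.9% and 1.48 per Mb. An overlap of 50% of both intervals gave 12.2% of border peaks and -5.09 points, the summit inside a tet2/3 morpholino peak 17.4% and -8.82 points, and a distance within 500 bp -13.6 points. Equal control fold gave -2.96 points, leaving out 2 Mb at the chromosome ends -9.20 points, and both together -1.38 points. With the summit rule, equal fold gave -1.39 points, and equal fold without the ends -0.073 points. Stricter limits on the tet2/3 morpholino peaks or on the overlap lower the shares and densities by construction. A stricter limit on the control peaks raised both, and the limit of 100 kb raised the share met. For the other shifts the cause was not tested. The difference was negative and the ratio below 1 under each alternative run on them. At equal fold without the ends, however, the difference was within counting error under both overlap rules. Leaving out chromosomes 3 and 22, or adding the rest of chromosome 4, kept each value computed within its counting error or 1.5 times its count. The summit, whole-peak and 2-chromosome alternatives, and all those on the difference and the ratio except equal fold, were chosen after seeing the data. Deserts without runs of unknown bases were not run. No paired analysis was possible because there is a single pull-down per group.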

Other observations

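Some 1 Mb windows were mostly desert, and they are named after their values were seen. Of 1312 windows, 568 met no desert and 24 had at least 50% of their length in deserts. The highest was chromosome 22 from 8 to 9 Mb, with 85.8% in 7 deserts, 1 tet2/3 morpholino peak and 11 control peaks. The window of chromosome 22 from 9 to 10 Mb had 75.9% in deserts, with 4 tet2/3 morpholino and 23 control peaks. That from 27 to 28 Mb had 80.9%, with 12 tet2/3 morpholino and 25 control peaks. The window of chromosome 3 from 2 to 3 Mb had 82.6% in 9 deserts, with 12 tet2/3 morpholino and 26 control peaks.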
